A study of Mus musculus with 23 samples.

Results

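The 9 genes described here encode proteins that act at or near the synapse, are known to be induced by neuronal activity, and were followed by symbol in mouse hippocampus with and without the enzyme ACSS2: Arc, Homer1, Plk2, Nptx2, Nrn1, Rheb, Inhba, Ptgs2 and Rgs2. The 9 genes were taken from 24985 gene symbols in each of 2 count tables, were found in both, and passed the filter on low counts in both. ACSS2 makes acetyl-CoA from acetate in the cytosol and the nucleus, and the study compared mice that lacked it with WT mice, at rest and shortly after learning. All mice were on a C57BL6/J background. KO mice lacked exons 3 to 7 of Acss2, removed at the single-cell embryo stage so that every tissue and every age carried the loss, and Het mice had lost this stretch on 1 copy only. The dorsal experiment used a 1 mm section of dorsal hippocampus cut in a brain matrix and held KO mice conditioned to fear a context by a single shock and taken 30 min later (KO fear, n = 4), KO mice taken from the home cage (n = 5), WT mice conditioned and timed in the same way (WT fear, n = 3) and WT mice from the home cage (n = 5). The whole hippocampus experiment used freehand dissected hippocampi of KO, Het and WT mice from the home cage (n = 2 each). The home cage was the control for conditioning here, so the shock, the context and the handling cannot be told apart. Nothing in the labels shows that the libraries of a group came from separate animals, so the p-values speak only for the scatter among these libraries, part of which may be technical.

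Neurons that fire strongly switch on a set of genes within minutes, without needing newly made protein. One class of these immediate early genes encodes transcription factors such as Fos and Egr1, and another encodes effectors that act directly on the synapse, the class followed here. In the hippocampus the effectors adjust receptor number, spine structure and local signalling after learning, and Arc in particular is used as a marker of neurons engaged by a new context.

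In the postsynaptic group, Arc encodes a protein that binds the endocytic machinery and removes AMPA receptors from the synapse. Homer1 encodes a scaffold that ties metabotropic glutamate receptors to the postsynaptic density, and its short activity-induced form, Homer1a, loosens these links. Plk2 is a polo-like kinase that shrinks spines after sustained activity. In the secreted and surface group, Nptx2 encodes a pentraxin that clusters AMPA receptors, Nrn1 encodes neuritin, a membrane-anchored protein that promotes neurite and spine growth, and Inhba encodes the subunit of activin A. In the signalling group, Rheb is the small GTPase that activates mTORC1, Ptgs2 is the cyclooxygenase COX-2 that makes prostaglandin precursors, and Rgs2 speeds GTP hydrolysis on Gq proteins.

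Library totals ran from 5362773 to 23412644 counts in the dorsal experiment and from 18814460 to 27293661 in whole hippocampus. The members carried 108 to 9698 reads per dorsal library and 205 to 7573 per whole library, with Inhba at the low end. Levels are in CPM, counts relative to the library size, with that size scaled by TMM, the normalization of edgeR. Acss2 matched the labelled genotype in each library, with 3.87 to 7.02 CPM in KO, 31.2 to 34.3 CPM in Het libraries and 56.2 to 71.3 CPM in WT. The dorsal libraries carried batch labels B1, B2 and B3. KO fear 1 and 2, WT fear 1 to 3 and WT home cage 1 and 2 were of B1, KO home cage 1 to 3 and WT home cage 3 to 5 of B2, and KO fear 3 and 4 with KO home cage 4 and 5 of B3. WT fear libraries thus came from B1 alone and were among the shallowest. Dorsal libraries of each group expressed markers of dentate granule cells, with summed levels of 387 to 917 CPM. No marker of the 13 cell type and region lists was at 0 in every library of an experiment, and single groups were not checked for this. In whole hippocampus the KO libraries differed from the others in sex-linked genes. Xist, made from the inactive X chromosome of females, stood at 0.137 to 0.145 CPM in KO, 597 to 644 CPM in Het libraries and 663 to 677 CPM in WT. The Y-linked gene Ddx3y stood at 89.6 to 101 CPM in KO, 0.107 to 0.186 CPM in Het libraries and 0 CPM in WT. In the dorsal libraries of both genotypes Ddx3y ran from 70.5 to 120.1 CPM.

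On the mm10 genome, in the GENCODE M21 annotation, Arc (ENSMUSG00000022602.14) lies at chr15:74669083-74672570 on the minus strand. Homer1 (ENSMUSG00000007617.18) lies at chr13:93299635-93405129, Plk2 (ENSMUSG00000021701.8) at chr13:110395046-110400844, Inhba at chr13:16011851-16031621 and Nptx2 at chr5:144545902-144557478, all on the plus strand. Ptgs2 lies at chr1:150100031-150108227 on the plus strand. Nrn1 at chr13:36725361-36735131, Rheb at chr5:24802823-24842624 and Rgs2 at chr1:143999338-144004161 lie on the minus strand. The annotation holds 12 transcripts of Homer1, and a count per gene symbol does not separate the short activity-induced form from the long ones. Exons of Nrn1 share 501 bp, or 22.3% of their length, with Fars2 on the opposite strand. The library kit does not mark strand, so reads from that stretch cannot be assigned and Nrn1 values are uncertain there. Fars2 averaged 20.2 to 26.4 CPM in the dorsal groups and Nrn1 322 to 425 CPM. The part of Fars2 reads in the Nrn1 values was not tested. Exons of the other 8 members share no bases with exons of another gene in this annotation.

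Promoter windows, from 250 bases before to 50 bases after a RefSeq start site on GRCm38.p6, were matched for 6 of the 9 members, with 2 windows for Homer1. Of the members with a window, Homer1 and Plk2 were lower in KO fear than in WT fear, and Ptgs2 and Rheb higher. Each of these calls was lost without KO fear 2, WT fear 2 or WT fear 3. The windows of these 4 members are shown, and the part of their letters in the differences was not tested. Each is printed 5′ to 3′ on its gene's own strand. Capitals mark TGACG on either strand (CGTCA when read on the printed one) and the full palindrome TGACGTCA, letters known as the binding site of CREB, a factor activated by calcium and cAMP.
Homer1 (first window), chr13:93303507-93303806, plus strand: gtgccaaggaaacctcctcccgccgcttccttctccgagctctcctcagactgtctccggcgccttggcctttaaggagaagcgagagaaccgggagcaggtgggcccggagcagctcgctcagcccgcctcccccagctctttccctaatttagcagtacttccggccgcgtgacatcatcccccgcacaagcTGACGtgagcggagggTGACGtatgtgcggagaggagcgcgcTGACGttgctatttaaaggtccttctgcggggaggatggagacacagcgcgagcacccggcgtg
Plk2, chr13:110394794-110395093, plus strand: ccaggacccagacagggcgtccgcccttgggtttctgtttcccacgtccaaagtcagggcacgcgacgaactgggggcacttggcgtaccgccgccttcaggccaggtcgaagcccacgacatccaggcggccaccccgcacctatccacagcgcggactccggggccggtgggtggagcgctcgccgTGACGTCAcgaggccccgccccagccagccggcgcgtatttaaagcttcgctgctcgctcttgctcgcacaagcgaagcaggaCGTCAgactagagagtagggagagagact
Ptgs2, chr1:150099781-150100080, plus strand: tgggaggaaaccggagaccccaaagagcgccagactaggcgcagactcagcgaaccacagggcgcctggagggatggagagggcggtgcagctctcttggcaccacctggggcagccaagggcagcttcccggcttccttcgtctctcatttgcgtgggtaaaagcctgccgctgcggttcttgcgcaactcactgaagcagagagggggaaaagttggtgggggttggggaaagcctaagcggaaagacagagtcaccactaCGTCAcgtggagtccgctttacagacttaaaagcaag
Rheb, chr5:24842312-24842611, minus strand: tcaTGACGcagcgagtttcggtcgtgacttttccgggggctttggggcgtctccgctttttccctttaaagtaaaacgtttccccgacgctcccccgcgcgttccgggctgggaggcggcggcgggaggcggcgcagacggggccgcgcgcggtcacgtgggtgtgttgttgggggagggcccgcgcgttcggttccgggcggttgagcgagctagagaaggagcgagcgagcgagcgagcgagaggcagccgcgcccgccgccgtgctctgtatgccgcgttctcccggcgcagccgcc

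The Homer1 window holds TGACG at 3 positions, starting 56, 40 and 14 bases before the start site. The Plk2 window holds the palindrome TGACGTCA 62 bases before the start, which contains TGACG on both strands, and a further CGTCA 22 bases after it. Rheb has TGACG 247 bases before the start, at the far edge of its window, and Ptgs2 has CGTCA 14 bases after it. Rgs2, which was not called and is not shown, has CGTCA 185 bases and TGACG 67 bases before its start. Over the 7 windows of the 6 members, 5 held TGACG on either strand and 1 held TGACGTCA. Among 32851 windows of the same length in the RefSeq table, 20.8% held TGACG and 1.79% held TGACGTCA. The EGR site GCGTGGGCG, the AP-1 site TGANTCA, the CArG box and the MEF2 site were found in 0 of the 7 windows, against 0.612%, 7.81%, 1.63% and 0.557% of all windows. The E-box CACGTG was found in 2 windows, those of Rheb and Ptgs2, against 7.15% of all windows, and TATAAA in 1, that of Inhba, against 13.6%. Both strands were searched, the TGACG count includes matches inside TGACGTCA, and these matches are letters in a window only.

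Levels of different genes were compared per kilobase of merged exons. Nrn1 had the highest level in each of the 7 groups and Inhba the lowest. In dorsal hippocampus Nrn1 averaged 180 CPM per kb in KO fear, 167 in KO home cage, 143 in WT fear and 189 in WT home cage. Arc averaged 90.9 CPM per kb in KO fear and 42.7 in KO home cage, and 91.3 in WT fear and 25.0 in WT home cage, so that it stood above Plk2 (57.8, 62.1, 70.7 and 56.2 CPM per kb in the same 4 groups) after conditioning and below it in the home cage. Rheb followed at 18.8 to 24.0 CPM per kb in the dorsal groups. Rgs2, Nptx2, Homer1 and Ptgs2 lay between 6.38 and 18.0 CPM per kb, close to each other and in an order that changed with the group. Inhba stood at 2.19 to 3.25 CPM per kb. The order depends on the length used. Per kilobase of the longest coding transcript, Arc lay below Plk2 after conditioning too, at 91.0 against 92.7 CPM per kb in KO fear and 91.3 against 113 in WT fear, Rheb (81.4 to 104 CPM per kb in the dorsal groups) ranked 2 or 4, and Homer1 5 or 6.

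WT fear against WT home cage asked what conditioning changed in mice with ACSS2. Arc rose 3.95-fold and Homer1 rose 1.45-fold, and none of the other 7 members passed. Over all genes, 1.63% passed in this comparison, 0.871% higher and 0.756% lower. Arc stood at 241, 259.8 and 336 CPM in WT fear 1 to 3, against 57.4, 75.2, 117, 68.4 and 63.9 CPM in WT home cage 1 to 5. Each conditioned library lay at least at 241 CPM and no home cage library above 117 CPM. The log2 difference of Arc was 1.98 ± 0.27 (SE, edgeR quasi-likelihood test, adjusted p = 0.00211), with the 6th smallest p of all genes tested, and within batch B1 it was 2.09 ± 0.19 (edgeR adjusted p = 0.000835). It passed in all 24 alternatives run, with log2 differences between 1.80 and 2.11. In tissue of many cell types, more RNA per cell and more cells of a type that expresses Arc cannot be told apart.

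**Figure D1:**
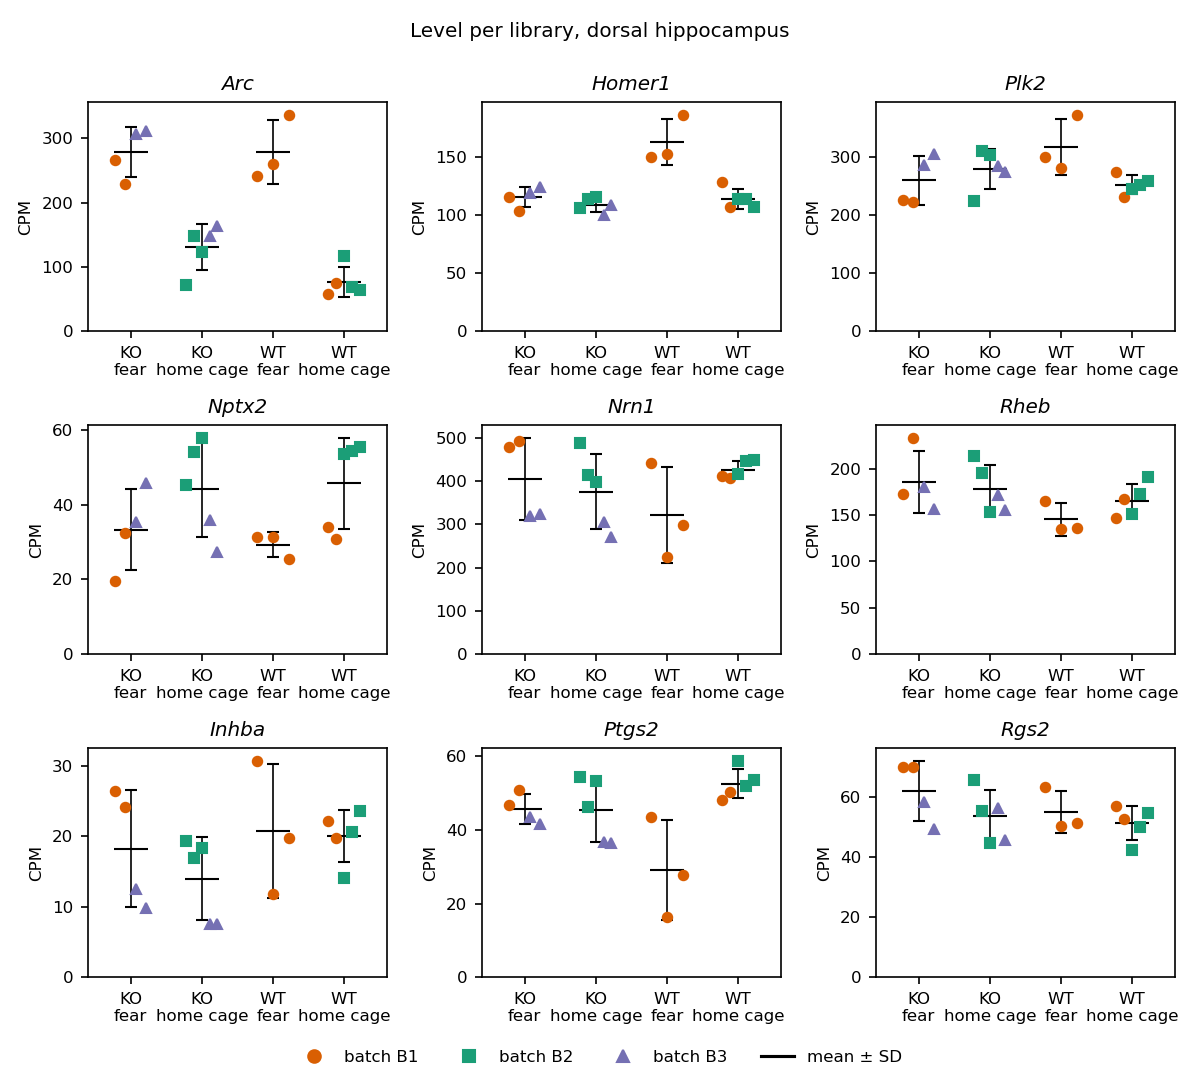
Level of each gene in CPM (vertical axes, from 0) in every dorsal library, with the groups KO fear, KO home cage, WT fear and WT home cage from left to right. Points are libraries coloured by batch and lines give the mean ± SD. Arc lies at 228 to 336 CPM in both conditioned groups, and Homer1 at 151 to 186 CPM in WT fear alone.

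Homer1 stood at 151, 153 and 186 CPM in WT fear, against 129, 107, 114, 114 and 107 CPM in WT home cage. The conditioned libraries again lay above each home cage library. Its log2 difference was 0.53 ± 0.11 (edgeR adjusted p = 0.0344). This call was close to the threshold: Homer1 passed in 13 of 24 alternatives, and within batch B1 its difference was 0.49 ± 0.15 (edgeR adjusted p = 0.197). It was lost without WT home cage 2 (edgeR adjusted p = 0.261), WT fear 2 (0.117) or WT fear 3 (0.140). It was also lost without WT home cage 4, KO home cage 4 or 5, or KO fear 3 or 4, with an adjusted p of 0.0517 to 0.0534.

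Plk2 stood at 299, 281 and 372 CPM in WT fear, against 274, 232, 244, 252 and 259 CPM in WT home cage. Its ranges did not overlap, but its log2 difference of 0.40 ± 0.14 did not pass (edgeR adjusted p = 0.123). Non-overlapping ranges are common in this comparison: 16.1% of all genes had them, 7.70% higher and 8.45% lower, and 4 members did, namely Arc, Homer1 and Plk2 with the higher range in WT fear and Ptgs2 with the lower. The median log2 difference of the 9 members was -0.02, equal at this rounding to the median of all genes, -0.02.

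Among secreted and surface proteins, Nptx2 stood at 31.3, 31.2 and 25.4 CPM in WT fear, against 34.0, 30.9, 53.6, 54.2 and 55.5 CPM in WT home cage. The 3 home cage libraries above 50 CPM were those of batch B2. The 2 of B1 lay beside the conditioned libraries of the same batch, and with batch in the model the log2 difference was -0.03 ± 0.19 (edgeR adjusted p = 0.945). Nrn1 stood at 442, 224 and 299 CPM in WT fear, against 411, 406, 417, 445 and 448 CPM in WT home cage. WT fear 1 lay within the home cage range and WT fear 2 and 3 below it, with a log2 difference of -0.37 ± 0.17 (edgeR adjusted p = 0.234). Inhba stood at 30.7, 11.8 and 19.8 CPM in WT fear, against 22.1, 19.8, 14.1, 20.7 and 23.6 CPM in WT home cage, so that WT fear held both the highest and the lowest of the 8 values. Its log2 difference was -0.01 ± 0.26 (edgeR adjusted p = 0.981).

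Among signalling proteins, Ptgs2 stood at 43.5, 16.3 and 27.9 CPM in WT fear, against 48.2, 50.3, 58.7, 52.1 and 53.7 CPM in WT home cage. Each conditioned library lay below the home cage range, and they spread widely, with a coefficient of variation of 46.6% against 7.59% in WT home cage. The log2 difference of -0.76 ± 0.22 missed the threshold (edgeR adjusted p = 0.0767), while it passed by DESeq2 (-0.73, adjusted p = 0.0311), with no filter on low counts (edgeR adjusted p = 0.0403) and with no batch term (0.0267). Without WT fear 1, Ptgs2 passed with a log2 difference of -1.10 and an edgeR adjusted p = 0.0032, and Nrn1 passed with -0.63 and an adjusted p = 0.0147. Rheb stood at 165, 135 and 135 CPM in WT fear, against 147, 167, 151, 172 and 190.3 CPM in WT home cage, and Rgs2 at 63.3, 50.5 and 51.5 CPM, against 56.9, 52.8, 42.5, 49.9 and 54.7 CPM. Both genes overlapped between the groups, with log2 differences of -0.15 ± 0.15 for Rheb and -0.02 ± 0.15 for Rgs2 (edgeR adjusted p = 0.574 and 0.950).

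Cell type and region markers moved in the same comparison. Their counts are to be read beside the 1.63% of all genes that passed, 0.871% higher and 0.756% lower. Without WT home cage 2 only 6 genes of all passed, so most of these marker calls were lost there. Of 6 markers of CA1 pyramidal neurons, 5 were higher in WT fear, with summed levels of 638 to 1091 CPM in WT fear and 374 to 543 CPM in WT home cage. Of 8 markers of CA2 and CA3 neurons, 2 were lower, with sums of 263 to 486 CPM in WT fear and 572 to 867 CPM in WT home cage. Lower too were 8 of 10 oligodendrocyte markers (sums of 4031 to 5398 CPM in WT fear and 6939.9 to 13879.9 CPM in WT home cage), 5 of 8 ependymal markers (7.32 to 10.7 CPM and 39.0 to 104 CPM), 1 of 6 of choroid plexus and 1 of 6 of thalamus. None passed among the markers of astrocytes, microglia, endothelium, neurons in general, dentate granule cells, neocortex and interneurons. Within WT fear, the library that was high in Nrn1, Ptgs2 and Inhba, WT fear 1, had the lowest CA1 sum, 638 CPM against 997 and 1091 CPM in WT fear 2 and 3, and the highest CA2 and CA3 sum, 486 CPM against 263 and 324 CPM. WT fear 1 was also the shallowest dorsal library, with 5362773 counts, and the highest of WT fear in Rheb and Rgs2. The parts of depth and of this tissue makeup in the values of the members were not tested.

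**Figure D2:**
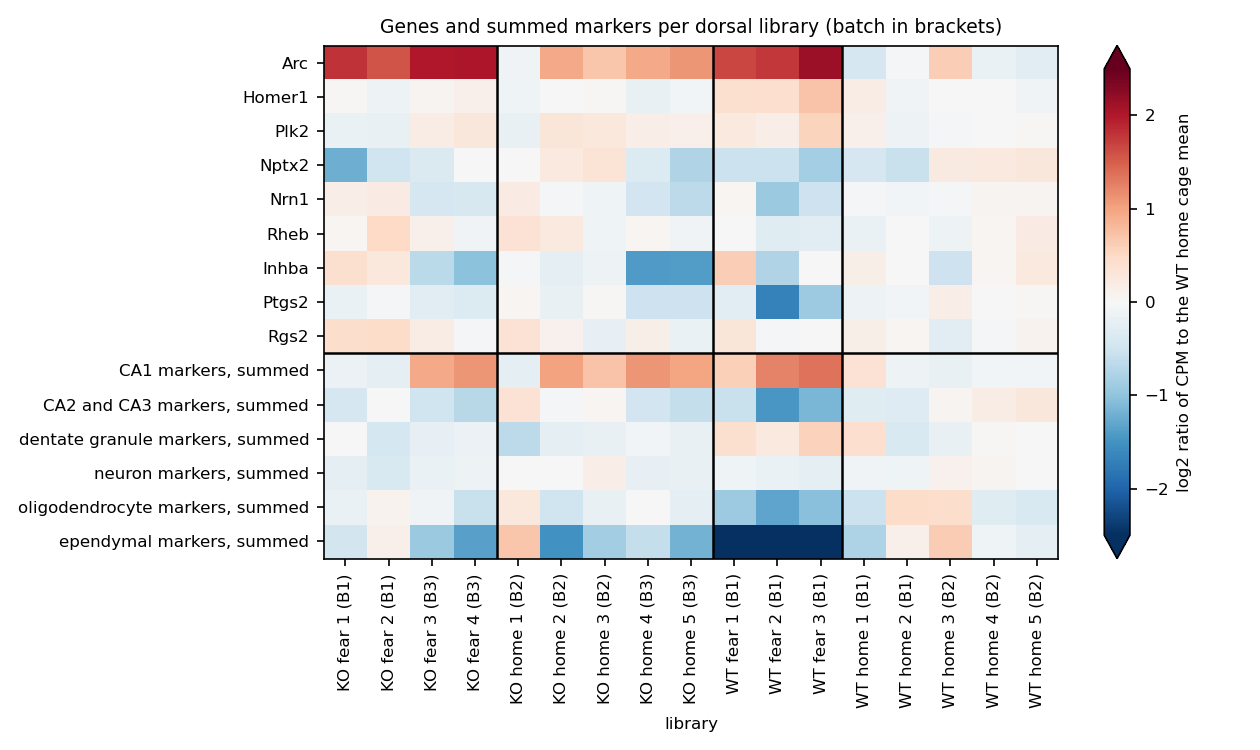
Log2 ratio of each library's CPM to the WT home cage mean (colour, saturated beyond 2.5 in either direction) for the 9 genes above the line and for summed markers of 6 cell types below it, with 1 column per dorsal library and its batch in brackets. Arc is high in each conditioned library, and the 3 WT fear libraries are also low in ependymal and oligodendrocyte markers and high in CA1 markers. KO home cage 2 to 5 and KO fear 3 and 4 are high in CA1 markers too.

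In WT fear against WT home cage, genes of 2 of the 9 lists of partners passed. Of 10 transcription factors induced by activity, 9 were higher with a median log2 difference of 1.52, led by Egr2 (4.68 ± 0.49), Fos (2.54 ± 0.31) and Junb (1.51 ± 0.20), with edgeR adjusted p of 0.000427, 0.00151 and 0.00204. Of 12 partners of Homer proteins, 1 passed: Itpr1, the IP3 receptor that Homer links to metabotropic receptors, averaged 893 ± 159 CPM in WT fear and 476 ± 79.3 CPM in WT home cage (log2 difference 0.76 ± 0.19, edgeR adjusted p = 0.0494). The count over all genes in this comparison, 241, ran from 6 without WT home cage 2 to 829 without WT home cage 1. In the other 7 lists 0 genes passed. The smallest p among the 18 endocytosis and spine partners of Arc was that of Sh3gl3, an endophilin (log2 difference -0.55, adjusted p = 0.108), and among the 8 polo-like kinases and substrates that of Pdlim5 (-0.33, adjusted p = 0.176). In the pentraxin and neuritin list of 6 it was C1ql3 (0.68, adjusted p = 0.0774), in the Rheb and mTORC1 list of 14 Tsc1 (0.43, adjusted p = 0.147), and in the activin list of 15 Inhbb (1.33, adjusted p = 0.0526). In the prostaglandin list, 11 of 15 genes could be tested and Ptgds led (-0.92, adjusted p = 0.0529), and among the 17 genes of RGS proteins and Gq signalling Rgs17 led (0.41, adjusted p = 0.0942).

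KO fear against KO home cage asked the same of mice without ACSS2. No member passed by edgeR, Arc alone having an unadjusted p under 0.05, and over all genes edgeR called 0%, with 714 genes at an unadjusted p under 0.05, while DESeq2 called 6 genes, Arc among them. Arc stood at 266, 228, 307 and 310.3 CPM in KO fear 1 to 4, against 72.0, 148, 123, 147 and 163 CPM in KO home cage 1 to 5. The lowest conditioned library lay above the highest home cage library, a separation that 4.30% of all genes showed, 2.33% higher and 1.97% lower, and no other member. The log2 difference was 1.16 ± 0.23, or 2.23-fold, with an edgeR unadjusted p = 0.00011, the 4th smallest of 14808 genes, and an adjusted p = 0.404. Within batch B3, with 2 libraries in each group, it was 0.98 ± 0.088 and passed (edgeR adjusted p = 0.0267), and by DESeq2 it was 1.16 (adjusted p = 0.0130). KO home cage 1 was the lowest at 72.0 CPM, inside the WT home cage range, and the other 4 KO home cage libraries lay at 123 to 163 CPM.

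Homer1 stood at 116, 104, 119 and 124 CPM in KO fear, against 107, 114, 116, 100.1 and 109 CPM in KO home cage. Plk2 stood at 225, 223, 286 and 305 CPM in KO fear, against 223, 310.2, 304, 284 and 274 CPM in KO home cage. Ranges overlapped for both genes, although KO fear 3 and 4 lay above each KO home cage library in Homer1. The log2 differences were 0.10 ± 0.10 for Homer1 and -0.07 ± 0.13 for Plk2 (edgeR adjusted p = 0.968 and 0.980). Nptx2 stood at 19.7, 32.3, 35.4 and 45.8 CPM in KO fear, against 45.2, 54.1, 57.7, 35.9 and 27.3 CPM in KO home cage. In batch B3 the conditioned libraries (35.4 and 45.8 CPM) overlapped those of the home cage (35.9 and 27.3 CPM), and the higher home cage values came from B2. The log2 difference of Nptx2 with batch in the model was 0.14 ± 0.17 (edgeR adjusted p = 0.971).

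Nrn1 stood at 478, 493, 320.0 and 323 CPM in KO fear, against 487, 414, 397, 306 and 271 CPM in KO home cage, and Inhba at 26.5, 24.2, 12.5 and 9.80 CPM, against 19.3, 16.9, 18.4, 7.54 and 7.58 CPM. Both genes followed batch: the B3 libraries were the lowest of each group. Within B3 the log2 difference of Inhba was 0.55 ± 0.18 (edgeR adjusted p = 0.870), near its pooled value of 0.48 ± 0.23 (adjusted p = 0.968). Ptgs2 stood at 46.7, 50.8, 43.6 and 41.7 CPM in KO fear, against 54.4, 46.3, 53.3, 36.7 and 36.6 CPM in KO home cage. Unlike WT fear, KO fear kept to a narrow range of this gene, with a coefficient of variation of 8.73%. Rheb (172, 233, 181 and 157 CPM in KO fear, against 214, 195, 153, 172 and 155 CPM in KO home cage) and Rgs2 (70.0, 70.2, 58.2 and 49.5 CPM, against 65.7, 55.3, 44.6, 56.5 and 45.7 CPM) overlapped too. The log2 differences of Nrn1, Ptgs2, Rheb and Rgs2 lay between 0.12 and 0.20.

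No gene of the 9 partner lists and no marker passed in KO fear against KO home cage. The smallest p of a list was that of Fos among transcription factors (log2 difference 1.28 ± 0.25, with 27.7 ± 9.23 CPM in KO fear and 11.8 ± 2.42 CPM in KO home cage, edgeR adjusted p = 0.404) and of Dnm2 (-0.31), Rasgrf1 (-0.22), Nrn1l (0.61), Akt1s1 (-0.18), Bambi (0.49), Ptgs1 (0.20) and Rgs16 (-0.78) in 7 other lists, with an adjusted p of 0.968. All 10 transcription factors had log2 differences above 0, with a median of 0.405. CA1 marker sums overlapped, at 364 to 914 CPM in KO fear and 359.7 to 904 CPM in KO home cage, as did ependymal sums, at 26.1 to 73.3 CPM and 23.4 to 108 CPM.

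**Figure D3:**
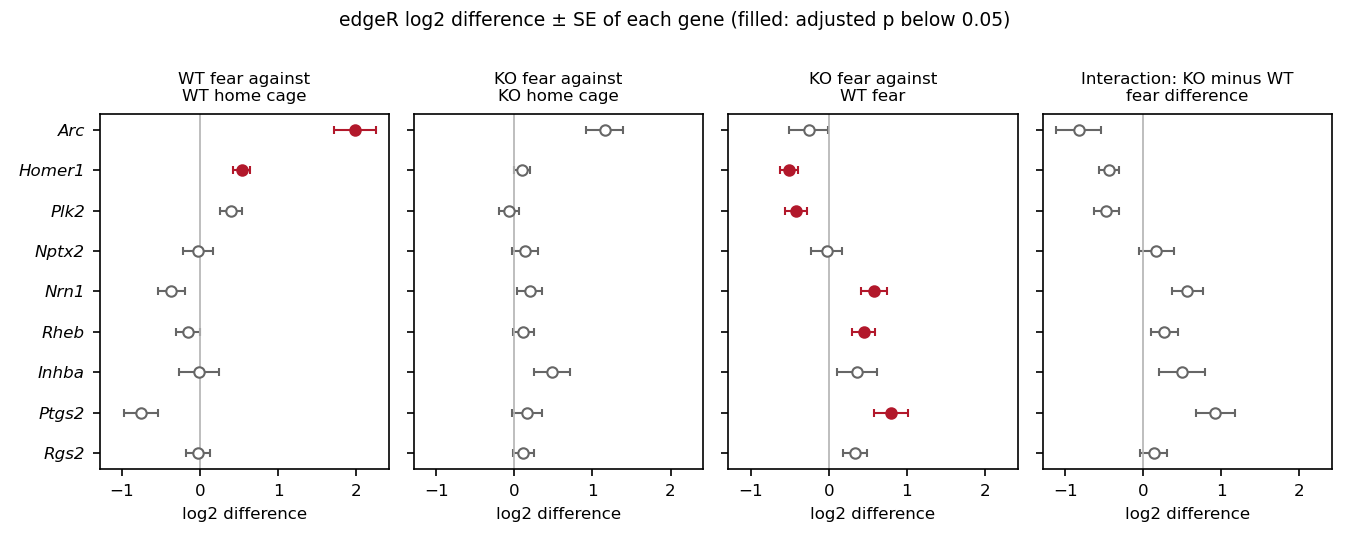
Log2 difference ± SE from edgeR for each gene in 4 dorsal comparisons, the last being the difference in KO minus that in WT. Filled points have an adjusted p below 0.05. Arc is farthest to the right in both fear comparisons, at 1.98 in WT and 1.16 in KO, and passes in WT only.

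Whether conditioning acted differently in KO and WT was tested by the interaction, the difference that conditioning made in KO minus that in WT. No batch held every dorsal group: B1 had no KO home cage library, B2 no conditioned library and B3 no WT library. The interaction therefore rests on the assumption that batch shifted each group alike, which these libraries cannot test in full. No member passed by edgeR, with 5 at an unadjusted p under 0.05, and 0.479% of all genes did, 0.196% higher and 0.284% lower. Arc had an interaction of -0.83 ± 0.29 (edgeR adjusted p = 0.126), Homer1 -0.44 ± 0.13 (0.0922) and Plk2 -0.47 ± 0.16 (0.123). Ptgs2 had 0.92 ± 0.25 (edgeR adjusted p = 0.0749), Nrn1 0.56 ± 0.20 (0.127), Inhba 0.50 ± 0.29 (0.322), Rheb 0.27 ± 0.17 (0.360), Nptx2 0.17 ± 0.22 (0.663) and Rgs2 0.14 ± 0.17 (0.653). So the larger Arc difference in WT is not shown to differ from that in KO. Arc reached an edgeR adjusted p = 0.0277 without KO home cage 1, the KO home cage library lowest in Arc, as did Plk2 (0.0467) and Ptgs2 (0.0399). Without WT fear 1, Ptgs2 (adjusted p = 0.00312), Nrn1 (0.00657) and Homer1 (0.0394) passed, and Homer1 also did without WT home cage 1 (0.0373). DESeq2 called Homer1 (adjusted p = 0.0256) and Ptgs2 (0.0216).

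Of the transcription factors, 3 of 10 had a lower fear difference in KO: Egr2 (interaction -2.75 ± 0.53, edgeR adjusted p = 0.0406), Junb (-1.15 ± 0.22, adjusted p = 0.0420) and Egr1 (-1.38 ± 0.27, adjusted p = 0.0420). These calls were lost, as 0 genes of all passed, without any 1 of the 4 KO fear libraries, WT fear 2 or 3, KO home cage 4 or 5, or WT home cage 2 or 5, and with the batch term left out. They were lost too without WT home cage 4, where the 1 gene that passed was higher, and at most 1 of the 3 can have passed without WT home cage 3 and 2 without KO home cage 2, the numbers of lower genes called there. No gene of the other 8 partner lists passed, with the smallest p for Sh3gl3 (0.69), Itpr1 (-0.67), Rasgrf1 (-0.62), C1ql3 (-0.71), Rptor (-0.54), Inhbb (-1.23), Ptgs1 (0.57) and Rgs5 (0.85), and edgeR adjusted p of 0.0661 to 0.130. Markers passed in the interaction too, 3 of 6 of CA1 lower and, higher, 4 of 8 of ependyma, 1 of 8 of CA2 and CA3, 1 of 8 of astrocytes and 1 of 6 of choroid plexus.

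KO fear against WT fear asked how the conditioned mice differed by genotype, and shares its WT fear libraries with the WT comparison above. Homer1 and Plk2 were lower in KO fear, and Nrn1, Ptgs2 and Rheb were higher. These 5 of 9 members stand beside 22.3% of all genes, 10.2% higher and 12.1% lower. Homer1 stood at 104 to 124 CPM in KO fear and 151 to 186 CPM in WT fear (log2 difference -0.51 ± 0.12, edgeR adjusted p = 0.0155). It was the one member whose ranges did not overlap, as 21.4% of all genes did, 10.7% higher and 10.6% lower. Plk2 was at 223 to 305 CPM in KO fear and 281 to 372 CPM in WT fear (-0.42 ± 0.14, edgeR adjusted p = 0.0427). Among the higher genes, Ptgs2 was at 41.7 to 50.8 CPM in KO fear and 16.3 to 43.5 CPM in WT fear (0.80 ± 0.22, edgeR adjusted p = 0.0228), with WT fear 1 inside the KO range. Nrn1 was at 320.0 to 493 CPM in KO fear and 224 to 442 CPM in WT fear (0.58 ± 0.17, edgeR adjusted p = 0.0278). Fars2, which shares exon sequence with Nrn1 on the other strand, also passed (0.57 ± 0.17, edgeR adjusted p = 0.0292). Its means were lower, at 26.4 CPM in KO fear and 20.2 CPM in WT fear. Rheb was at 157 to 233 CPM in KO fear and 135 to 165 CPM in WT fear (0.45 ± 0.15, edgeR adjusted p = 0.0422).

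Arc did not pass between the conditioned genotypes, with means of 278 ± 38.7 CPM in KO fear (SD, n = 4) and 279 ± 50.01 CPM in WT fear (n = 3), and a log2 difference of -0.26 ± 0.25 (edgeR adjusted p = 0.467). The means take no account of batch, unlike the fitted difference: KO fear averaged 247 CPM in B1 and 309 CPM in B3, and WT fear was of B1 alone. Rgs2 (0.33 ± 0.15, adjusted p = 0.113), Inhba (0.36 ± 0.26, adjusted p = 0.317) and Nptx2 (-0.03 ± 0.20, adjusted p = 0.931) did not pass by edgeR either. Within batch B1, the one batch with libraries of both conditioned genotypes, Homer1 (-0.58 ± 0.16, edgeR adjusted p = 0.0256) and Plk2 (-0.51 ± 0.16, adjusted p = 0.0404) passed. Ptgs2 (0.76 ± 0.28, adjusted p = 0.0765), Nrn1 (0.59 ± 0.21, adjusted p = 0.0733) and Rheb (0.47 ± 0.16, adjusted p = 0.0621) did not pass there, at differences close to the pooled ones.

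The calls rested on few libraries and, Homer1 apart, were lost with the batch term left out. B3 held no WT library. Nrn1 averaged 486 CPM in KO fear of B1 and 322 CPM in KO fear of B3, against 322 CPM in WT fear. Without KO fear 2 no member passed and 1 gene of all did, with an edgeR adjusted p of 0.110 for Homer1, 0.188 for Plk2, 0.128 for Nrn1, 0.115 for Ptgs2 and 0.295 for Rheb. Without WT fear 2 the same 5 members had adjusted p of 0.0713 to 0.140, and without WT fear 3 of 0.0708 to 0.191, with 2 and 1 genes called in all. Homer1 passed when any other library was left out. Plk2 was lost also without KO fear 1 (edgeR adjusted p = 0.134), KO fear 3 (0.0587), WT home cage 2 (0.0604) or WT home cage 4 (0.0547), and Nrn1 without KO fear 1 (0.0646). Rheb was lost also without KO fear 3, KO home cage 2 or 5, or WT home cage 2, 3 or 4, with an adjusted p of 0.0518 to 0.0614. Without WT fear 1, Inhba passed as well (log2 difference 0.70, edgeR adjusted p = 0.0363).

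Markers again moved with this comparison. Their counts are to be read beside those of all genes, 10.2% higher and 12.1% lower in KO fear. Lower in KO fear were 5 of 6 CA1 markers, 3 of 6 of dentate granule cells and 3 of 8 of neocortex, and higher were 8 of 10 of oligodendrocytes, 8 of 8 of ependyma, 5 of 6 of choroid plexus, 3 of 8 of CA2 and CA3, 2 of 8 of astrocytes, 1 of 8 of microglia and 1 of 6 of thalamus. Markers of neurons in general passed in both directions, 2 higher and 3 lower of 8, as did those of interneurons, 3 higher and 1 lower of 8. Summed CA1 markers were at 383, 364, 817 and 914 CPM in KO fear 1 to 4 and at 638, 997 and 1091 CPM in WT fear 1 to 3. Ependymal sums were at 26.1 to 73.3 CPM in KO fear and 7.32 to 10.7 CPM in WT fear, and oligodendrocyte sums at 6827 to 10719.9 CPM and 4031 to 5398 CPM, without overlap. Plk2 was lowest in KO fear 1 and 2, which also had the lowest CA1 sums and the highest Nrn1 levels. The part of tissue makeup in the differences of the members was not tested.

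Partners of the members passed in both directions between KO fear and WT fear, as did 22.3% of all genes, 10.2% higher and 12.1% lower. These calls rest on the same libraries, since at most 2 genes of all passed without KO fear 2, WT fear 2 or WT fear 3. Among partners of Homer proteins 5 of 12 were lower and 0 higher, led by Grm5, the metabotropic receptor that Homer binds (264 ± 46.3 CPM in KO fear and 415 ± 58.6 CPM in WT fear, log2 difference -0.70 ± 0.17, edgeR adjusted p = 0.0176), Itpr1 (-0.70 ± 0.19, adjusted p = 0.0214) and Ryr2, the ryanodine receptor (-0.76 ± 0.23, adjusted p = 0.0289). Among endocytosis and spine partners of Arc, 2 of 18 were higher and 6 lower, led by Ap2s1, a subunit of the clathrin adaptor AP-2 (0.92), Wasf1, which drives actin branching (-0.74), and Sh3gl3 (0.73). Polo-like kinases and substrates had 2 of 8 lower, led by the Ras regulator Rasgrf1 (-0.68). In the pentraxin and neuritin list 2 of 6 were lower, C1ql3 (-0.99) and Nptx1 (-0.74), the pentraxin that pairs with Nptx2.

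In the Rheb and mTORC1 list 2 of 14 were lower, the core subunits Rptor (log2 difference -0.70) and Mtor (-0.65), while 2 were higher, Tbc1d7 of the TSC complex (0.51) among them. In the activin list 1 of 15 was higher and 7 lower, led by the receptors Acvr1b (-0.84) and Acvr1 (-0.43) and by Smad3 (-0.67). Of 11 prostaglandin genes tested, Ptgds was higher in KO fear (1.15 ± 0.24, with 281 ± 36.9 CPM in KO fear and 135 ± 39.0 CPM in WT fear). The receptor Ptger3 was lower (-1.44 ± 0.47, with 0.530 ± 0.202 CPM in KO fear and 0.885 ± 0.320 CPM in WT fear). These Ptger3 levels lie near the filter on low counts. Its means take no account of batch and lie closer together than the fitted difference. Among RGS and Gq genes 1 of 17 was higher, Rgs10 (0.91), and 2 lower, Rgs17 (-0.42) and Gnaq (-0.35). Neither the RGS and Gq list nor the prostaglandin list exceeded the 10.2% of all genes that were higher and the 12.1% that were lower. The Rheb and mTORC1 list, and the higher partners of Arc, lay near those shares. Among transcription factors 4 of 10 were lower and 0 higher, led by Egr3 (-0.66), Egr1 (-0.90) and Fosb (-1.01). Medians of the 9 lists lay between -0.66 for transcription factors and 0.23 for prostaglandin genes, against 0.01 for all genes, and 0.33 for the members.

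KO against WT in the dorsal home cage asked what loss of ACSS2 did before conditioning. No member passed by edgeR or DESeq2, with Arc alone at an unadjusted edgeR p under 0.05, and 0.00675% of all genes, 1 gene, did. Arc stood at 131 ± 35.8 CPM in KO home cage and 76.4 ± 23.6 CPM in WT home cage (SD, n = 5 each), a log2 difference of 0.57 ± 0.21 (edgeR unadjusted p = 0.0132, adjusted p = 0.440). KO home cage 1 lay among the WT values, and the other 4 KO libraries lay above 117 CPM, the highest WT library. Within batch B2 the Arc difference was 0.47 ± 0.30 (edgeR adjusted p = 0.817). The other 8 members had log2 differences between -0.20 for Nptx2 and 0.20 for Rgs2, and 3.09% of all genes, 1.71% higher and 1.38% lower, but no member had ranges that did not overlap. No partner and no marker passed. The smallest p in each list was that of Fos (0.99 ± 0.23, with 11.8 ± 2.42 CPM in KO home cage and 4.94 ± 1.77 CPM in WT home cage), Ap2s1 (0.43), Ryr2 (-0.42), Pdlim5 (-0.24), Nrn1l (0.83), Eif4ebp1 (0.46), Fst (-0.84), Ptges2 (0.29) and Rgs5 (-0.65), with edgeR adjusted p of 0.440 to 0.447. All 10 transcription factors had log2 differences above 0, with a median of 0.49. Summed CA1 markers were at 359.7 to 904 CPM in KO home cage and 374 to 543 CPM in WT home cage, and KO home cage 1, low in Arc, was also the lowest in these, at 359.7 CPM against 692 to 904 CPM in the other 4. The part of this in the Arc values was not tested.

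Whole hippocampus compared KO, Het and WT at rest. No member passed in KO against WT, Het against WT or KO against Het, in which 0.0388% (0.0259% higher, 0.0129% lower), 0% and 0.0841% (0.0453% higher, 0.0388% lower) of all genes passed. For Het against WT, 2145 genes had an unadjusted edgeR p under 0.05, Inhba among them, and DESeq2 called 142 genes and no member. Rgs2 was the 1 member with an unadjusted p under 0.05 in KO against Het, and 0 members had one in KO against WT. DESeq2 called no member in these either. Arc stood at 119.9 and 136 CPM in KO, 114 and 211 CPM in Het libraries and 181 and 164 CPM in WT. Both KO values lay below both WT values, with a log2 difference of -0.44 ± 0.26 (edgeR adjusted p = 0.834), while the Het libraries spanned the whole range. Such separation is uninformative with 2 libraries a group: 42.1% of all genes had it for KO against WT (20.2% higher, 21.9% lower), 46.6% for Het against WT (23.7% and 22.9%) and 43.0% for KO against Het (20% and 23%), and 6, 3 and 2 members did.

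Nptx2 also had both KO values below both WT values, at 24.6 and 27.8 CPM in KO, 25.2 and 41.1 CPM in Het libraries and 31.5 and 31.9 CPM in WT, and Rgs2 stood at 38.6 and 34.8 CPM in KO, 40.9 and 50.4 CPM in Het libraries and 41.4 and 41.7 CPM in WT. Het 2 was the highest library in 6 of the 9 members, Arc, Nptx2, Rgs2, Homer1 (139 CPM), Nrn1 (281 CPM) and Inhba (13.7 CPM), and the lowest in Plk2 and Ptgs2. It was also the highest in summed neocortex markers, at 579 CPM against 342 CPM in Het 1, 309 and 312 CPM in KO and 312 and 297 CPM in WT, and the part of this in these genes was not tested. Without Het 1, Het 2 stands alone and is assumed to vary like the other groups, and then Arc (log2 difference -0.72, edgeR adjusted p = 0.00769), Nptx2 (-0.65, 0.0126) and Rgs2 (-0.45, 0.0255) were lower in KO than in Het. With both Het libraries their differences were -0.35 ± 0.26, -0.35 ± 0.21 and -0.32 ± 0.11 (edgeR adjusted p = 0.57, 0.494 and 0.321).

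**Figure D4:**
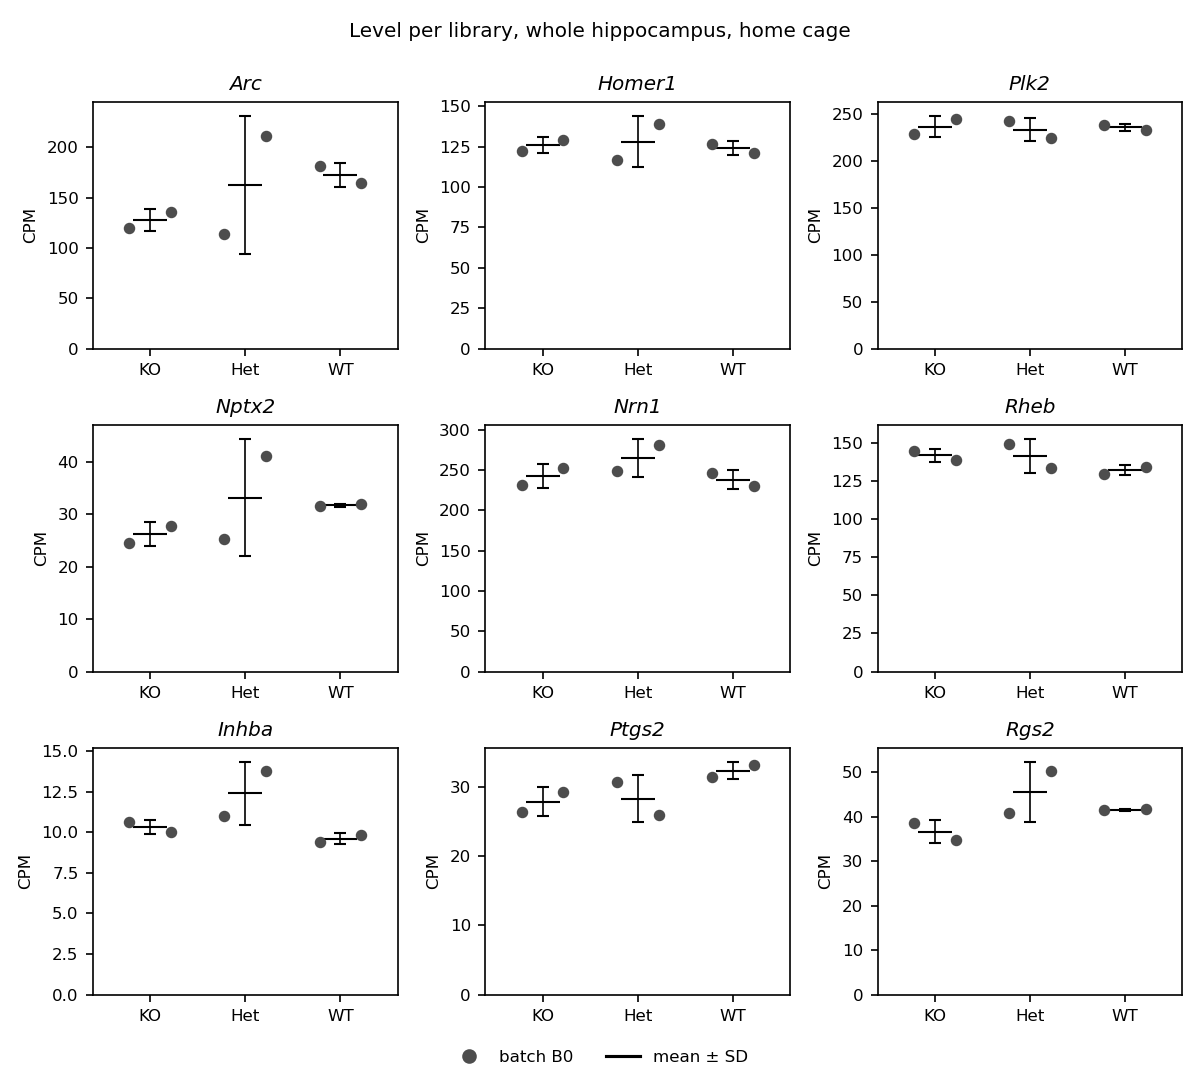
Level of each gene in CPM (vertical axes, from 0) in every whole hippocampus library, for KO, Het and WT from left to right. Points are libraries and lines give the mean ± SD (n = 2). The Het libraries lie apart in Arc, at 114 and 211 CPM, while KO and WT pairs lie closer together.

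The other members spanned narrower ranges in whole hippocampus than Arc and Nptx2. Homer1 stood at 123 and 129 CPM in KO, 117 and 139 CPM in Het libraries and 127 and 121 CPM in WT. Plk2 stood at 228 and 244 CPM in KO, 242 and 224 CPM in Het libraries and 238 and 232 CPM in WT. Across the 6 libraries the highest value was 1.09 times the lowest for Plk2, 1.15 for Rheb, 1.19 for Homer1, 1.22 for Nrn1, 1.28 for Ptgs2, 1.45 for Rgs2 and 1.47 for Inhba. In the KO against WT comparison Ptgs2 (26.4 and 29.3 CPM in KO and 31.4 and 33.2 CPM in WT, log2 difference -0.22 ± 0.10) and Inhba (10.6 and 10.03 CPM in KO and 9.38 and 9.85 CPM in WT, 0.11 ± 0.14) did not pass (edgeR adjusted p = 0.802 and 0.937). Genotype and the sex-linked genes moved together in KO against WT and KO against Het, and their parts cannot be told apart.

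No partner and no marker passed in whole hippocampus by edgeR. Summed choroid plexus markers differed widely within each genotype, at 4026 and 33.0 CPM in KO 1 and 2, 38.2 and 973 CPM in Het 1 and 2, and 35.4 and 2550.3 CPM in WT 1 and 2, and their part in the values of the members was not tested. In KO against WT the smallest p of each list was that of Junb (log2 difference -0.41, with 56.8 ± 1.26 CPM in KO and 75.7 ± 2.47 CPM in WT), Nptxr, the pentraxin receptor (-0.54), Sh3gl3 (0.17), Homer2 (0.18), Plk5 (-0.51), Mlst8 (-0.10), Tgfbr3 (0.43), Ptgds (0.44) and Rgs17 (0.12), with edgeR adjusted p of 0.497 to 0.867. In Het against WT it was that of Npas4 (1.61, with 47.2 ± 34.4 CPM in Het libraries and 15.6 ± 0.364 CPM in WT), Nptxr (-0.52), Cacng2 (0.38), Homer3 (-0.51), Rasgrf1 (-0.35), Rhebl1 (0.43), Fstl3 (0.64), Ptgs1 (0.51) and Rgs17 (0.27), with adjusted p of 0.167 to 0.378. In KO against Het it was that of Npas4 (-2.39), Cacng2 (-0.29), Ryr2 (0.27), Rasgrf1 (0.20), Nptx1 (0.24), Akt1s1 (-0.13), Smad7 (-0.22), Hpgds (-0.38) and Rgs5 (-0.32), with adjusted p of 0.230 to 0.494. Prostaglandin genes with enough reads numbered 13 of 15 in these libraries.

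Genes with the pattern nearest to that of each member were found over the 17 dorsal libraries, by the root mean square difference of log2(CPM + 0.5) centred on each gene's mean. Nearest to Arc were Fos (0.35), Nr4a1 (0.40), Fosb (0.43), Egr1 (0.50) and Sik1 (0.51), against a spread of Arc itself of 0.86. The first 4 encode transcription factors of the list above and Sik1 encodes a salt-inducible kinase. Homer1 lay nearest to Tsc22d2 (0.086), 9330159F19Rik (0.090) and Ralgps2 (0.091), against its own spread of 0.23. Plk2 lay nearest to Map4 (0.086), Usp25 (0.093) and Kcnab1 (0.096), against 0.20. Among the genes nearest to Rheb were Gtf2h5 (0.048) and Cnbp (0.051), against 0.21. Nrn1 and Ptgs2 shared Spock3 among their nearest genes, at 0.14 and 0.19. The others were Ncald (0.10) and Mgll (0.14) for Nrn1, against 0.32, and Lpl (0.18) and Nectin3 (0.20) for Ptgs2, against 0.43. These genes share the libraries, their depths and their batches with the members, so nearness is a description.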

How the data were processed

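Raw counts per gene symbol, as the authors deposited them, were used for 17 dorsal and 6 whole hippocampus libraries. Each table listed 24985 symbols, and 26 of the dorsal table had become dates and stayed unmatched. Per the labels' protocols, snap-frozen tissue was extracted with Trizol, and polyA RNA went into libraries made with a kit that does not mark strand. Tools named in the submitters' processing notes, with no role or order, are HTSeq 0.9.1, SAMtools 1.1, STAR, limma and DESeq2, beside the mm10 build, and no annotation is named. Normalized tables of the same libraries were not used here.

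Genes were tested with edgeR 4.0.16 (quasi-likelihood, R 4.3.3) after TMM normalization and filterByExpr (count minimum 10, total minimum 15), which left 14808 dorsal and 15453 whole hippocampus genes. The dorsal fit had terms for group and batch over 17 libraries (11 residual degrees of freedom), the whole fit a term for genotype over 6 libraries (3 residual degrees of freedom). P-values are two-sided and adjusted by Benjamini-Hochberg across every gene in the fit, and 0.05 was the threshold. A standard error is the absolute log2 difference over the square root of F. Batch is the batch named in the labels.

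The 9 members, 9 partner lists and 13 marker lists were chosen with earlier results of these data known. By rule, each member is named in every comparison, and of each partner list up to 3 genes that passed with the smallest p, or else the 1 with the smallest p. The 5 genes nearest to Arc and the 3 nearest to other members called in a dorsal comparison are named, except that a few genes the rule names are not reported here. Alternatives were DESeq2 1.42.0, its size factors, no filter, other model terms, 1 batch alone and leaving out each library. Every pair of libraries in a group differed by more than sampling noise. The procedure was tested on simulated data.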

Additional observations from a re-analysis of the deposited data

How the results depend on the processing

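Over 72 combinations of a gene and a comparison, 1386 alternative values were computed, of which 1250 kept direction and side of the threshold, 51 lost the call, 21 gained one and 64 changed sign, 0 of them past the threshold or of a called gene. Group means under other scalings moved by at most 2.95%.

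The number of members called moved as follows, and the cause was not tested. For WT fear against WT home cage (2) it was 1 with the replicate block, with the groups of the comparison only and within 1 batch, 3 by DESeq2, with no filter and without the batch term, and 1 to 4 leaving out single libraries. For KO fear against KO home cage (0) it was 1 by DESeq2 and within 1 batch. For KO against WT after fear (5) it was 0 with the replicate block, 3 with those groups only, 1 without the batch term, 2 within 1 batch and 0 to 6 leaving out libraries. For the interaction (0) it was 2 by DESeq2, 1 with no filter and 0 to 3 leaving out libraries, and for KO against Het (0) it was 0 to 3.

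Signs changed in the cases below (log2), not all of them for small differences. The main value of Inhba in KO against WT after fear was 0.359. That of Nptx2 in KO fear against KO home cage was 0.140. In WT fear against WT home cage Inhba had 0.0225 by DESeq2, 0.00336 with its size factors, 0.00757 with the block and 0.0252 without batch, and Rgs2 0.0599 with the block, 0.0989 without batch and 0.0157 within 1 batch. In KO fear against KO home cage Plk2 had 0.0780 with those groups only and 0.0730 within 1 batch, and Nptx2 -0.390 without batch. In KO against WT in the home cage Homer1 had 0.0237 with those groups only and 0.0135 within 1 batch, and Nrn1 -0.0152 with the block, -0.000692 with those groups only, -0.181 without batch and -0.0102 within 1 batch. In KO against WT after fear, without batch, Nptx2 had 0.202 and Inhba -0.202.

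Leaving out single libraries gave ranges across 0. In WT fear against WT home cage these were -0.0984 to 0.104 for Nptx2, -0.348 to 0.286 for Inhba and -0.0972 to 0.0394 for Rgs2. In KO fear against KO home cage Nptx2 had -0.0269 to 0.268. In KO against WT in the home cage Plk2 had -0.0290 to 0.128 and Nrn1 -0.0483 to 0.0663, and after fear Nptx2 had -0.167 to 0.251. In whole hippocampus, KO against WT, Homer1 had -0.0157 to 0.0632, Plk2 -0.0454 to 0.0535 and Nrn1 -0.0385 to 0.0871. In Het against WT, Arc had -0.601 to 0.287, Homer1 -0.0860 to 0.167, Plk2 -0.0709 to 0.0378, Nptx2 -0.332 to 0.371 and Rgs2 -0.0277 to 0.275. In KO against Het, Arc had -0.722 to 0.165, Homer1 -0.143 to 0.109, Plk2 -0.0345 to 0.0753, Nptx2 -0.649 to 0.0530, Rheb -0.0712 to 0.0889 and Ptgs2 -0.138 to 0.103.

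Counts over all genes moved more. WT fear against WT home cage (241) gave 938 by DESeq2, 528 with no filter, 15 with the block, 19 with those groups only, 712 without batch, 91 within 1 batch and 6 to 829 leaving out libraries. KO against WT after fear (3298) gave 1 with the block, 1544 without batch and 1 to 4610 leaving out libraries, and the interaction (71) gave 907 by DESeq2, 130 with its size factors, 400 with no filter, 0 with the block, 0 without batch and 0 to 1007 leaving out libraries. KO fear against KO home cage (0) gave 6 by DESeq2, 1 without batch and 2 within 1 batch, and KO against WT in the home cage (1) gave 2 by DESeq2, with no filter, without batch and without KO home cage 1, and 585 without KO home cage 3. In whole hippocampus KO against WT (6) gave 19 by DESeq2, Het against WT (0) 142 by DESeq2, 3 with no filter and 1424 without Het 1, and KO against Het (13) 135 by DESeq2, 23 with no filter, 7 with the block or with those groups only, 1211 without Het 1 and 6 to 8 without other libraries. Deviations of libraries with the same replicate number had r of -0.506 to 0.288 over 22 dorsal pairs and -0.678 to 0.388 over 6 whole hippocampus pairs. In whole hippocampus the 2 libraries of a genotype deviate from their mean as mirror images, and dorsal deviations are tied within group and batch. These values therefore cannot decide whether the numbers pair libraries. A block with the KO numbers crossed in whole hippocampus, chosen after seeing the data, called 8, 1 and 24 genes in KO against WT, Het against WT and KO against Het. The WT fear libraries are 3, all of B1, and among the shallowest, which limits each comparison that uses them.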
